A study of Mus musculus with 12 samples.

Results

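Pluripotent lines were set against mouse embryonic fibroblasts (MEF) across 3 genotypes of Mbd3, over all genes and with attention to gene families outside the classical pluripotency and fibroblast markers. The arrays were chosen by their labels alone, 4 from pluripotent lines and 3 from MEF, which are 7 of the 12 arrays of the series. The other 5 arrays came from doxycycline-treated cells and were not compared here. The pluripotent lines were WT induced pluripotent stem cells (iPSC), MBD3flox/- iPSC, MBD3-/- embryonic stem cells (ESC) and WT V6.5 ESC, where flox/- cells carry a floxed and a deleted copy of Mbd3 and -/- cells, by their label, no intact copy. The fibroblasts were WT, flox/- and -/- MEF. Per the labels, the WT and flox/- MEF and iPSC carry the factors Oct4, Sox2, Klf4 and Myc (OSKM) as a transgene that doxycycline induces, and their MEF were taken before induction, while the labels of the -/- MEF, the -/- ESC and the WT ESC name no OSKM. All 7 share, per the growth protocol, N2B27 medium with 15% KSR and 2i/LIF on irradiated DR4 feeder MEF, so feeder RNA can be in any sample. Each genotype and stage is 1 array, the number of animals or clones behind it is not stated, and the WT ESC array was reused from an earlier series.

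Mouse ESC and iPSC in 2i/LIF divide fast, form compact epithelial colonies and keep a large nucleus with an open chromatin, whereas MEF are flat, motile connective tissue cells that secrete and remodel matrix. The change from fibroblast to pluripotent cell therefore involves, beside the transcription factors that define each state, ribosome production, genome maintenance, metabolism, adhesion, membrane traffic and the receptors through which a cell reads its surroundings. Mbd3 belongs to NuRD, a complex that remodels chromatin and deacetylates histones. A difference in bulk RNA can come from fewer cells of a type or from less RNA per cell, and these cannot be told apart here.

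The labels were checked against defining markers, as log2 of the summed linear signal of a marker list. The 6 pluripotent markers summed to between 14.54 and 14.69 in the pluripotent arrays and to between 7.69 and 8.05 in the MEF arrays. The 7 fibroblast markers summed to 11.76 in WT iPSC, 9.72 in flox/- iPSC, 10.76 in -/- ESC and 12.004 in WT ESC, against 14.60, 14.70 and 14.69 in WT, flox/- and -/- MEF. Fibroblast signal thus was higher in both WT pluripotent arrays than in the flox/- iPSC and -/- ESC arrays, and counts are therefore also given without the WT pluripotent arrays. Macrophage markers summed to 11.07, 10.004, 10.13 and 10.77 in pluripotent arrays, against 13.08 in WT MEF, 12.43 in flox/- MEF and 10.43 in -/- MEF, so that fibroblast arrays differed among themselves. Endothelial markers summed to between 9.68 and 10.53 in pluripotent arrays, against 7.43 to 7.93 in MEF arrays, through Pecam1 and Tek, while Cdh5 and Kdr did not pass the filter on dim genes. Skeletal muscle markers summed to between 8.18 and 9.30 in pluripotent arrays, against 9.51 to 10.44 in MEF arrays, through Acta1, with Myod1 and Myog not passing. Neural markers summed to between 8.34 and 8.65 in pluripotent arrays, against 10.07 to 10.69 in MEF arrays, through Map2 and, in WT MEF, Nes, with Sox10 not passing. The targeted gene Mbd3 was at 9.21 in WT iPSC, 8.73 in flox/- iPSC, 6.73 in -/- ESC and 9.31 in WT ESC, against 9.20, 8.92 and 8.15 in WT, flox/- and -/- MEF. The array labelled -/- MEF thus kept Mbd3 signal above that of -/- ESC, which goes against its label. Whether the probes lie inside the deleted part was not checked here. Genotype names are those of the labels throughout. The Y-linked gene Eif2s3y was at 5.02 in WT iPSC, 9.78 in flox/- iPSC, 10.37 in -/- ESC and 9.20 in WT ESC, against 5.73, 10.06 and 10.04 in WT, flox/- and -/- MEF. Other sex-linked markers did not all follow it. The Y-linked gene Uty was at 9.61 in WT MEF, beside 9.65 and 9.44 in flox/- and -/- MEF. Kdm5d, also Y-linked, was at 4.71 in WT iPSC and 4.69 in WT ESC. Xist was at 8.93 in WT ESC and 9.68 in flox/- MEF, where Eif2s3y was high as well. The arrays thus also differ in sex-linked signal, which the labels do not describe. The part of these differences between arrays in the results was not tested.

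Values are log2 signals, and 4 values of pluripotent arrays are listed as WT iPSC, flox/- iPSC, -/- ESC and WT ESC, and 3 values of MEF arrays as WT, flox/- and -/-. A gene was called at a limma adjusted p under 0.05 over the 13044 genes that passed the filter, and "rose" and "fell" are used of called genes. Counts of a list are over its members that passed the filter. A dim gene that passed through 1 group alone had to differ, so such counts describe the members and do not support a difference of the family. Of these genes 3921 (30.1%) rose and 3906 (29.9%) fell in pluripotent arrays, and any list has to be read against these shares. Without the WT pluripotent arrays 3628 were called higher and 3540 lower. The falls were more numerous at moderate size and the rises at large size: 1869 called genes were at least 2-fold higher and 2334 at least 2-fold lower, 197 and 383 at least 8-fold, and 33 and 7 at least 32-fold. The median log2 difference over all genes was 0.03. A fold is limited by background for a gene whose weaker group sits around the lower quartile of an array, which was 4.68.

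**Figure D1:**
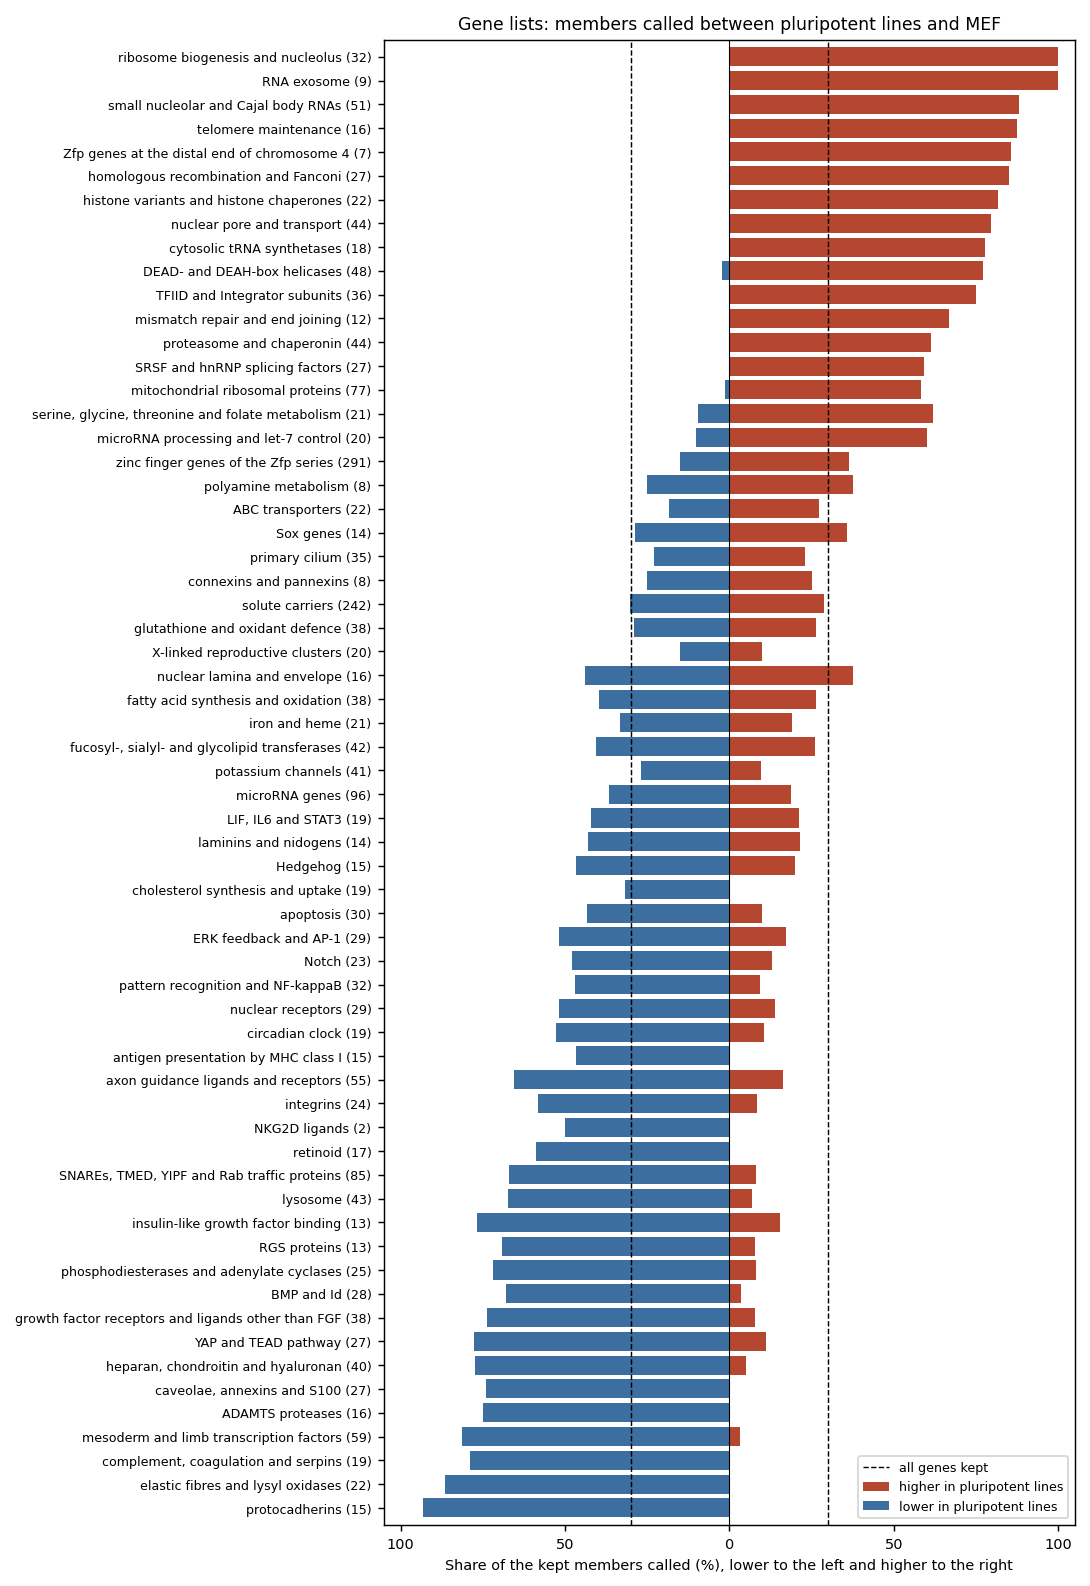
Each bar is a gene list with the number of its members that passed the filter, drawn to the right for the percentage called higher in pluripotent arrays than in MEF arrays and to the left for the percentage called lower, and the dashed lines mark the share among all genes, 30.1% higher and 29.9% lower. Ribosome biogenesis and the RNA exosome lie at 100% higher, and protocadherins, of which 15 of 34 passed the filter, at 93.3% lower.

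Each of 3 pluripotent lines has MEF of its own genotype, and these 3 pairs share no array. Of all genes, 15.9% were at least 2-fold higher and 18.4% at least 2-fold lower in WT iPSC than in WT MEF, 16.2% and 19.5% in flox/- iPSC than in flox/- MEF, and 15.1% and 18.5% in -/- ESC than in -/- MEF. In all 3 pairs 1303 genes (9.99%) were at least 2-fold higher and 1653 (12.7%) at least 2-fold lower. Across genes, which are not independent replicates, the pair differences had a Pearson correlation of 0.897 between WT and flox/-, 0.835 between WT and -/-, and 0.917 between flox/- and -/-. Few genes moved at least 2-fold in opposite directions: 8 between the WT and flox/- pairs, 29 between WT and -/-, and 10 between flox/- and -/-.

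Genes of that kind were read on single arrays, with no test. Mest, an imprinted gene of the hydrolase fold family, had 9.91, 11.33, 11.95 and 10.46 in pluripotent arrays, against 12.32, 10.76 and 6.01 in MEF arrays. It was thus 2.41 lower in WT iPSC than in WT MEF, 0.56 higher in the flox/- pair and 5.94 higher in the -/- pair, and most of that span lies in the MEF arrays. The matrix protease gene Mmp3 had 7.58, 4.83, 5.25 and 6.70 in pluripotent arrays, against 4.74, 7.66 and 9.53 in MEF arrays, with differences of 2.84, -2.83 and -4.29 in the WT, flox/- and -/- pairs. Serpina3n, a secreted protease inhibitor gene, had 8.50, 8.60, 7.15 and 6.82 in pluripotent arrays, against 6.85, 12.02 and 12.45 in MEF arrays, and its low MEF value was that of WT. The iron exporter gene Slc40a1 ran the other way, with 5.68, 5.48, 8.92 and 5.57 in pluripotent arrays, against 8.24, 8.19 and 5.27 in MEF arrays, being high in -/- ESC and low in -/- MEF. In these 4 genes the ranges of both groups overlap, and none of them was called.

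**Figure D2:**
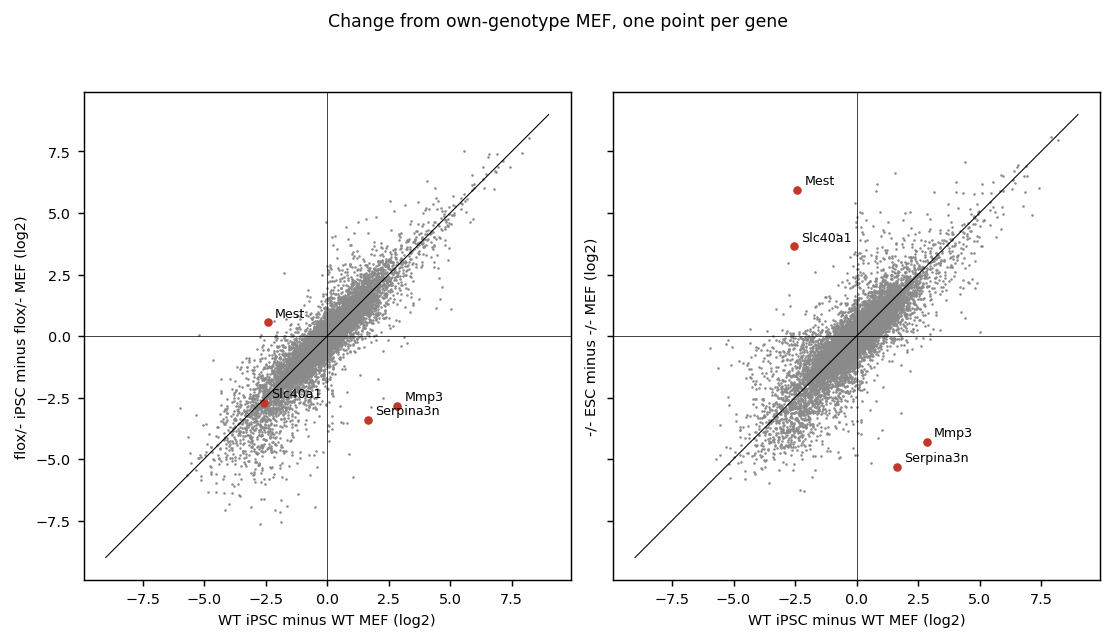
Each point is a gene, with the log2 difference of WT iPSC minus WT MEF on the horizontal axis and that of flox/- iPSC minus flox/- MEF (left) or -/- ESC minus -/- MEF (right) on the vertical axis, and the diagonal marks equal differences. Most genes lie along the diagonal, while Mest (-2.41 in the WT pair and 5.94 in the -/- pair), Slc40a1, Mmp3 and Serpina3n lie away from it.

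The nucleolus and the making of ribosomes were higher in every member measured. All 32 genes of the ribosome biogenesis list rose, with a median log2 difference of 1.21 beside 0.03 over all genes, and 32 were called with any 1 array left out. Of these 25 were at least 2-fold higher. Dkc1, the pseudouridine synthase of H/ACA small nucleolar particles and of telomerase, had 10.63, 10.78, 10.63 and 10.40 in pluripotent arrays, against 8.26, 8.53 and 8.94 in MEF arrays (log2 difference 2.03 ± 0.18 SE, adjusted p = 0.000101). The 4 pluripotent arrays lay within a narrow band and no MEF array reached it. Polr1b, a core subunit of RNA polymerase I, rose by 1.95, Heatr1, a factor of ribosomal RNA transcription and small subunit assembly, by 1.63 and Rrp9, a U3 particle protein, by 1.51 on the log2 scale.

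The small nucleolar and Cajal body RNAs, which guide the modification of ribosomal and spliceosomal RNA, were measured by probe sets of their own. Of 51 that passed the filter 45 rose and 0 fell, with a median of 0.96. By class, 17 of 20 H/ACA genes (Snora), 26 of 28 C/D genes (Snord) and 2 of 3 Cajal body genes (Scarna) rose. Snora75 had 8.67, 8.73, 9.12 and 9.40 in pluripotent arrays, against 6.65, 6.03 and 6.51 in MEF arrays (log2 difference 2.58 ± 0.23 SE, adjusted p = 0.0001), and WT ESC was the highest and flox/- MEF the lowest of its arrays. Scarna8 rose by 1.93, Snora41 by 1.87 and Snord53 by 1.87. Most such RNAs lie in introns of host genes, and the probe sets do not tell a mature small RNA from the host transcript.

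The RNA exosome is the complex that trims and degrades RNA from its 3′ end. All 9 measured genes of its list rose (median 0.74, between 7 and 9 with any 1 array left out). Exosc5 led at 9.35, 9.52, 9.17 and 9.69 in pluripotent arrays, against 7.51, 7.84 and 7.77 in MEF arrays (log2 difference 1.73 ± 0.16 SE, adjusted p = 0.00011). No MEF array came within 1 log2 unit of the lowest pluripotent array. Among DEAD- and DEAH-box RNA helicases 37 of 48 rose and 1 fell, with a median of 0.68. Ddx43, a helicase gene best known from germ cells and tumours, had 7.08, 7.35, 7.58 and 6.80 in pluripotent arrays, against 4.62, 4.29 and 4.63 in MEF arrays (log2 difference 2.69 ± 0.20 SE, adjusted p = 5.33e-05), below the lower quartile in each MEF array. Ddx4, the germ cell helicase Vasa, rose by 1.86 and Ddx11, a helicase of sister chromatid cohesion, by 1.88. The 1 gene that fell, Ddx50 (-0.38), lost its call without flox/- iPSC (adjusted p = 0.0661), without WT ESC (adjusted p = 0.0553), without WT MEF (adjusted p = 0.0965) or without flox/- MEF (adjusted p = 0.063).

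TFIID starts transcription and Integrator cleaves nascent small nuclear RNA. Their list was taken by the gene names Taf and Ints, so it also holds Taf genes outside TFIID, such as Taf5l. Of its 36 genes 27 rose and 0 fell (median 0.64), and 1 fell without -/- ESC. Taf7 led with 8.53, 8.58, 8.25 and 8.86 in pluripotent arrays, against 5.53, 5.40 and 5.53 in MEF arrays (log2 difference 3.07 ± 0.15 SE, adjusted p = 1.34e-05), a gap of more than 2 log2 units between the groups. Taf4b, a paralog of Taf4 known from germ cells, rose by 1.96, Taf5 by 1.64 and the Integrator gene Ints7 by 1.40.

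Of 18 cytosolic tRNA synthetase genes 14 rose and 0 fell (median 0.57), with Cars, the cysteinyl-tRNA synthetase, in front at 10.45, 10.58, 10.50 and 10.45 in pluripotent arrays, against 9.05, 9.59 and 9.82 in MEF arrays (log2 difference 1.01 ± 0.18 SE, adjusted p = 0.00232). Of 77 mitochondrial ribosomal protein genes 45 rose and 1 fell (median 0.53), and Mrps31 led with 9.21, 9.10, 9.07 and 9.18 in pluripotent arrays, against 7.53, 7.55 and 7.40 in MEF arrays (log2 difference 1.65 ± 0.10 SE, adjusted p = 2.68e-05). The 1 that fell, Mrps21 (-0.44), lost its call with any array other than WT ESC left out (adjusted p between 0.057 and 0.105). SRSF and hnRNP splicing factors gave 16 of 27 higher and 0 lower (median 0.43), led by Srsf1 (0.82) and Hnrnpf (0.81).

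Proteasome and chaperonin genes gave 27 of 44 higher and 0 lower, but their median was 0.35 and the count was the least stable of these lists. It was 16 without WT MEF, 12 without flox/- MEF, 17 without flox/- iPSC and 13 without the WT pluripotent arrays. All 7 measured subunits of the CCT chaperonin that passed the filter rose, Cct7 by 0.89. Psma8, the proteasome subunit gene of the testis, had 7.33, 7.91, 7.75 and 6.88 in pluripotent arrays, against 4.58, 5.30 and 5.27 in MEF arrays (log2 difference 2.42 ± 0.29 SE, adjusted p = 0.000346), with WT ESC the lowest of the pluripotent arrays and yet above each MEF array.

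Genes that process microRNAs or hold back let-7 gave 12 of 20 higher and 2 lower (median 0.51), and 7 higher without the WT pluripotent arrays. Trim71, a let-7 target and repressor of mRNA in early embryos, had 10.16, 10.03, 10.003 and 10.48 in pluripotent arrays, against 6.09, 6.11 and 6.75 in MEF arrays (log2 difference 3.85 ± 0.20 SE, adjusted p = 1.64e-05). All pluripotent arrays were at or above 10, and -/- MEF was the highest fibroblast array. Lin28a, which blocks let-7 maturation, had 9.17, 7.71, 8.05 and 9.64 in pluripotent arrays, against 5.90, 5.79 and 5.91 in MEF arrays (log2 difference 2.78 ± 0.45 SE, adjusted p = 0.00145), higher in both WT lines than in flox/- iPSC and -/- ESC. Its paralog Lin28b rose by 1.78 and the nuclear microRNA cropping enzyme gene Drosha by 1.499. Prkra, a partner of Dicer, fell by 0.98 and the terminal uridyltransferase gene Tut7 by 0.65 on the log2 scale.

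The microRNA genes themselves carry probe sets, which read the primary transcript as much as the mature RNA. Mature microRNAs act through the seed, bases 2 to 8 from the 5′ end, which pairs with target mRNA. The sequences below, from RefSeq with the seed in capitals, are a choice from called genes of shared seed families. Genes of 1 family act on overlapping targets. The miR-17 family pair of the Mcm7 intron shares its seed:
miR-93-5p: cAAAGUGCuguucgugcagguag
miR-106b-5p: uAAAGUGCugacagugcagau
The seed shared by miR-25 and miR-363 is that of the miR-92 family:
miR-25-3p: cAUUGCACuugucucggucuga
miR-363-3p: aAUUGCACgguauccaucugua
Families of the opposite direction include miR-99 with miR-100, miR-125 and let-7:
miR-99a-5p: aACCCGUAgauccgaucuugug
miR-100-5p: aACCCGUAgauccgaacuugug
miR-125a-5p: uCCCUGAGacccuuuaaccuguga
miR-125b-5p: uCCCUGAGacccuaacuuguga
let-7e-5p: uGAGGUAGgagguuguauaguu
let-7i-5p: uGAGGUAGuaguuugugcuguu
And the miR-181 seed is found on both sides of the comparison:
miR-181b-5p: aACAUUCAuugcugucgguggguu
miR-181c-5p: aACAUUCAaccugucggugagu

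Of 296 microRNA genes measured 96 passed the filter, of which 18 rose and 35 fell (18.8% and 36.5%, beside 30.1% and 29.9% of all genes). Called genes of the miR-17 and miR-92 seed families were on the higher side, while Mir92b (0.28, adjusted p = 0.108) was not called. Mir363 had 6.85, 6.78, 5.31 and 6.11 in pluripotent arrays, against 3.84, 3.83 and 3.81 in MEF arrays (log2 difference 2.44 ± 0.36 SE, adjusted p = 0.000899), with -/- ESC the lowest pluripotent array and all MEF arrays below the lower quartile. Mir25 rose by 1.08, Mir106b by 0.95 and Mir93 by 0.53, and Mir18, of the related miR-18 seed, by 1.78 on the log2 scale. The groups did not overlap in any of these.

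Called genes of the miR-99, miR-125 and let-7 families were on the lower side, while Mir99b (-0.14, adjusted p = 0.424) and Mirlet7d (-0.41, adjusted p = 0.077) were not called. Mir100 fell by 2.29, Mir99a by 1.92, Mir125b-1 by 2.16, Mir125a by 0.58, Mirlet7e by 1.30 and Mirlet7i by 0.43 on the log2 scale. The muscle and mesenchyme gene Mir145a had 5.42, 5.06, 5.18 and 5.12 in pluripotent arrays, against 9.59, 9.26 and 10.04 in MEF arrays (log2 difference -4.44 ± 0.19 SE, adjusted p = 7.31e-06). Mir181b-1 fell most of all microRNA genes, with 5.58, 4.48, 4.28 and 4.71 in pluripotent arrays, against 8.94, 9.61 and 9.07 in MEF arrays (log2 difference -4.45 ± 0.32 SE, adjusted p = 4.95e-05), and WT iPSC was its highest pluripotent array. Mir181b-2 fell by 1.72, whereas Mir181c, with the same seed, rose by 0.45.

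A block of the falling genes lies in the imprinted cluster at the distal end of chromosome 12, which is transcribed from the maternal copy together with Meg3 and Rian. Of its 40 measured microRNA genes 21 passed the filter, and of these 16 fell and 0 rose (median -1.20). Several, such as Mir323, were above the array median in MEF arrays and under it in every pluripotent array, so this share is a description. The 75 elsewhere that passed gave 18 higher and 19 lower (median 0.05). Mir382 had 5.65, 6.73, 5.44 and 6.80 in pluripotent arrays, against 9.22, 8.75 and 8.86 in MEF arrays (log2 difference -2.79 ± 0.37 SE, adjusted p = 0.000553). Meg3, a transcript of the same cluster, had 9.13, 9.67, 8.28 and 10.59 in pluripotent arrays, against 11.73, 11.46 and 11.16 in MEF arrays. Rian had 5.48, 6.71, 4.83 and 7.85 in pluripotent arrays, against 9.20, 8.91 and 8.68 in MEF arrays. Among pluripotent arrays WT ESC and flox/- iPSC were the higher and WT iPSC and -/- ESC the lower in Mir382, Meg3 and Rian alike.

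**Figure D3:**
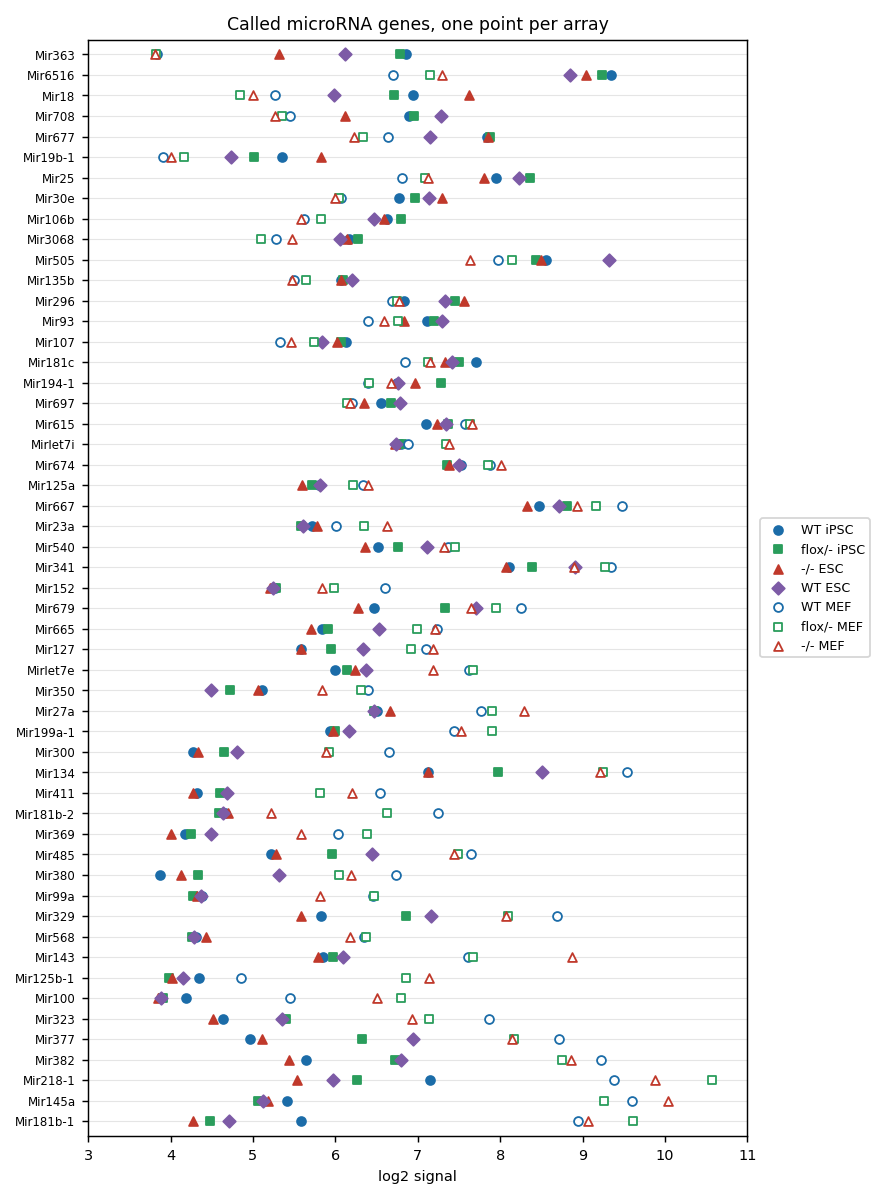
Rows are the called microRNA genes in order of their log2 difference, and each point is the log2 signal of 1 array, filled for pluripotent and open for MEF arrays. Mir363 lies at the top, between 5.31 and 6.85 in pluripotent arrays and from 3.81 to 3.84 in MEF arrays, and Mir181b-1 at the bottom.

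In homologous recombination and the Fanconi pathway, which repair breaks and crosslinks at replication forks, 23 of 27 genes rose and 0 fell (1 without the WT pluripotent arrays), with a median log2 difference of 2.04. Brca2, a mediator of homologous recombination, had 10.66, 10.65, 10.71 and 10.28 in pluripotent arrays, against 7.68, 7.001 and 7.25 in MEF arrays (log2 difference 3.26 ± 0.19 SE, adjusted p = 2.32e-05). The groups lay far apart, and WT ESC was the lowest of the pluripotent arrays. Fanci rose by 3.11, its partner Fancd2 by 2.99 and Brca1 by 2.81.

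In mismatch repair and end joining 8 of 12 rose and 0 fell (median 1.15). Msh6, which takes part in the recognition of mispaired bases, had 10.49, 10.50, 10.20 and 10.54 in pluripotent arrays, against 7.35, 7.45 and 7.30 in MEF arrays (log2 difference 3.06 ± 0.12 SE, adjusted p = 4.41e-06), a difference of 8.36-fold with a standard error among the smallest of the genes named. Xrcc5, the Ku80 subunit that binds broken ends, rose by 2.11, Msh3 by 1.64 and the DNA-dependent kinase gene Prkdc by 1.58.

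Telomere genes rose in 14 of 16 and fell in 0 (median 1.29). Rif1, a regulator of replication timing and of telomeres, had 11.36, 11.37, 11.28 and 11.10 in pluripotent arrays, against 8.39, 7.84 and 7.90 in MEF arrays (log2 difference 3.23 ± 0.16 SE, adjusted p = 1.34e-05). Terf1, which binds the telomeric repeat, rose by 2.11, the helicase gene Rtel1 by 1.71 and the telomerase RNA chaperone gene Wrap53 by 1.59. Histone variants and chaperones gave 18 of 22 higher and 0 lower (median 1.14; 1 lower without WT iPSC), led by Nasp, which binds free histones, at 10.17, 10.14, 10.15 and 9.84 in pluripotent arrays, against 7.58, 7.46 and 7.60 in MEF arrays (log2 difference 2.53 ± 0.12 SE, adjusted p = 1.16e-05). The linker histone gene H1f1 rose by 2.22, the damage-marked variant H2ax by 1.80 and the chromatin assembly subunit Chaf1b by 1.76.

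Of 44 nuclear pore and transport genes 35 rose and 0 fell (median 0.72; 1 fell without -/- ESC or without WT ESC), and among those with the Nup name 18 of 19 rose. Nup210, a transmembrane pore protein that is absent from many cell types, had 10.21, 9.72, 10.42 and 9.82 in pluripotent arrays, against 5.66, 5.68 and 5.81 in MEF arrays (log2 difference 4.33 ± 0.19 SE, adjusted p = 6.83e-06), which is 20-fold. Its MEF values lay close together, and -/- ESC and WT iPSC were the higher pluripotent arrays. Nup43 rose by 2.05, Nup133 by 1.62 and Nup37 by 1.41.

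The lamina list was divided, with 6 of 16 higher and 7 lower (median 0.09). The B-type lamins rose, Lmnb1 by 1.92 and Lmnb2 by 1.11, as did their receptor Lbr (1.27). Lmna, the A-type lamin that stiffens the nucleus of adherent cells, had 7.89, 6.81, 6.87 and 8.29 in pluripotent arrays, against 10.21, 10.60 and 10.41 in MEF arrays (log2 difference -2.94 ± 0.38 SE, adjusted p = 0.000469). Both WT lines were about 1 log2 unit above flox/- iPSC and -/- ESC, the same order as the fibroblast markers. Syne1 fell by 2.01 and Syne3 by 1.87 on the log2 scale, and both encode nesprins, which tie the nucleus to the cytoskeleton.

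**Figure D4:**
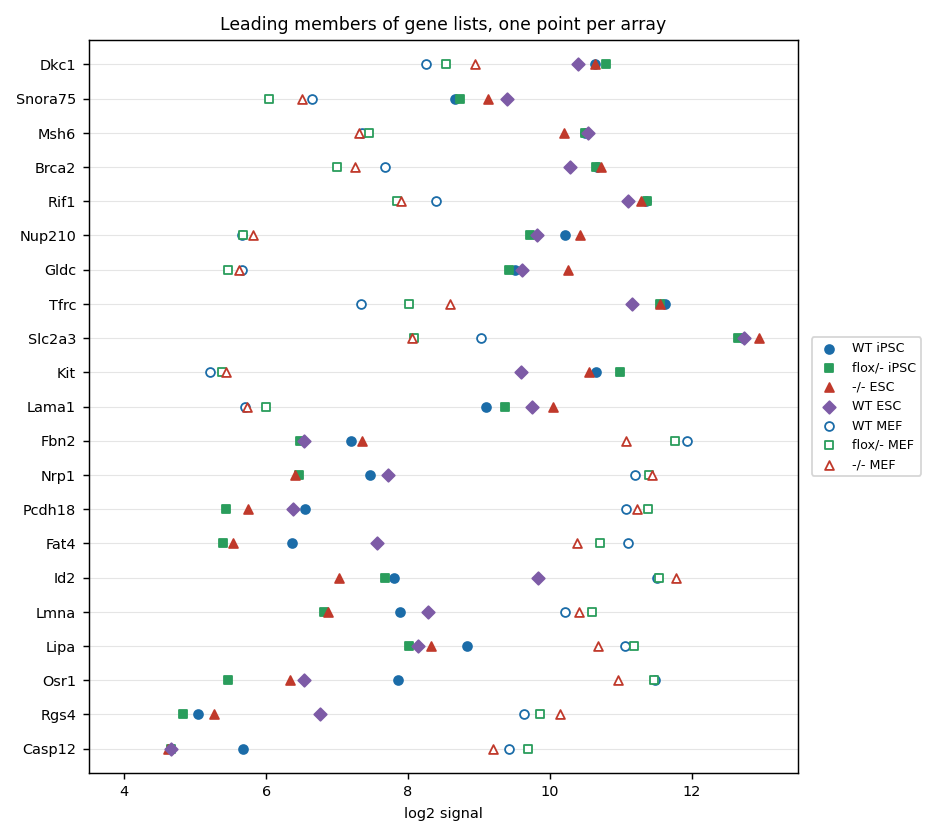
Each row is a leading gene of a list and each point the log2 signal of 1 array, filled for pluripotent and open for MEF arrays. From Dkc1 to Lama1 all filled points lie to the right of all open ones, and from Fbn2 to Casp12 to the left. For Nup210 the pluripotent arrays lie between 9.72 and 10.42 and the MEF arrays between 5.66 and 5.81.

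Metabolic lists did not share a direction, and several had shares near those of all genes (30.1% higher and 29.9% lower). Serine, glycine, threonine and folate metabolism, which supplies one-carbon units for nucleotides and methylation, gave 13 of 21 higher and 2 lower (median 0.86). Gldc, the decarboxylase of the glycine cleavage system, had 9.51, 9.42, 10.25 and 9.61 in pluripotent arrays, against 5.66, 5.46 and 5.62 in MEF arrays (log2 difference 4.12 ± 0.21 SE, adjusted p = 1.37e-05), a 17.4-fold difference in which -/- ESC was the highest array. Amt, the aminomethyltransferase of the same system, had 10.15, 10.58, 9.71 and 10.44 in pluripotent arrays, against 6.31, 6.12 and 6.52 in MEF arrays (log2 difference 3.91 ± 0.22 SE, adjusted p = 2.12e-05). The folate enzymes followed, with Shmt1 up by 2.75 and Mthfd1 by 2.31. Mthfd2l, a mitochondrial relative, fell by 1.40 on the log2 scale.

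Cholesterol synthesis and uptake gave 0 higher and 6 lower of 19 (median -0.30). The share lower was 31.6%, beside 29.9% of all genes, and the share higher was under the 30.1% of all genes. The count lower fell to 3 without flox/- MEF, without -/- MEF or without the WT pluripotent arrays, while 2 rose without -/- MEF. Hsd17b7, a late enzyme of the pathway, had 8.60, 9.12, 9.28 and 8.53 in pluripotent arrays, against 9.69, 10.15 and 10.53 in MEF arrays (log2 difference -1.24 ± 0.26 SE, adjusted p = 0.00483), with WT MEF the lowest of the MEF arrays. Sc5d fell by 1.17 on the log2 scale. Fatty acid genes gave 10 of 38 higher and 15 lower (26.3% and 39.5%, median -0.28), and 6 higher without the WT pluripotent arrays. Slc25a20, the mitochondrial carnitine carrier, rose by 1.26 and the elongase gene Elovl6 by 0.95, while the desaturase family gene Fads3 had 8.07, 6.49, 7.58 and 9.52 in pluripotent arrays, against 11.56, 11.78 and 11.89 in MEF arrays (log2 difference -3.83 ± 0.62 SE, adjusted p = 0.0014). Fads3 spanned 3.02 log2 units among pluripotent arrays, WT ESC highest, and the fat cell regulator Pparg fell by 2.39. In polyamine metabolism 3 of 8 genes rose and 2 fell, 1 rose without flox/- MEF, and 1 fell without flox/- MEF, -/- MEF, either iPSC or -/- ESC. The rate-limiting ornithine decarboxylase gene Odc1 rose by 1.48.

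Oxidant defence was mixed, with 10 of 38 genes higher and 11 lower (26.3% and 28.9%, median 0.01), beside 30.1% and 29.9% of all genes. Gsta4, a glutathione transferase for lipid peroxidation products, had 12.02, 12.11, 11.24 and 12.22 in pluripotent arrays, against 7.68, 9.09 and 8.96 in MEF arrays (log2 difference 3.32 ± 0.39 SE, adjusted p = 0.000314), with WT MEF the lowest array. The mitochondrial superoxide dismutase gene Sod2 rose by 1.53, while the secreted form Sod3 fell by 2.09 and the endoplasmic reticulum peroxidase gene Gpx8 by 2.82. Of 21 iron and heme genes 4 rose and 7 fell (19.0% and 33.3%). Tfrc, the transferrin receptor, led with 11.62, 11.55, 11.55 and 11.16 in pluripotent arrays, against 7.33, 8.02 and 8.59 in MEF arrays (log2 difference 3.49 ± 0.28 SE, adjusted p = 7.18e-05), and its MEF values ranged over more than 1 log2 unit. The ferroxidase gene Cp fell by 1.85 and the reductase gene Steap3 by 1.53.

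Of the solute carriers 70 of 242 rose and 73 fell (28.9% and 30.2%), shares near those of all genes. Slc2a3, the high-affinity glucose transporter Glut3, had 12.73, 12.65, 12.95 and 12.73 in pluripotent arrays, against 9.02, 8.08 and 8.05 in MEF arrays (log2 difference 4.38 ± 0.24 SE, adjusted p = 2.04e-05), 20.8-fold higher, with WT MEF the highest of the MEF arrays. Slc35f2 rose by 4.23, the peptide transporter gene Slc15a1 by 3.91 and the zinc importer gene Slc39a4 by 3.30. Of 12 zinc transporters of the Slc39 family 1 rose and 6 fell. Of 9 amino acid transporters of the Slc7 family 4 rose and 1 fell, and of 39 mitochondrial carriers of the Slc25 family 10 rose and 10 fell.

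On the lower side Slc14a1, the urea transporter, had 4.86, 4.83, 4.92 and 5.06 in pluripotent arrays, against 7.50, 9.26 and 8.94 in MEF arrays (log2 difference -3.65 ± 0.39 SE, adjusted p = 0.000205). The calcium-regulated carrier gene Slc25a24 fell by 3.38, the choline transporter gene Slc5a7 fell by 3.36 and the monocarboxylate transporter gene Slc16a7 fell by 3.25. Slc13a5, a citrate transporter gene, spanned 3.35 log2 units among pluripotent arrays, at 6.71, 9.20, 10.05 and 8.27. Among 22 ABC transporters 6 rose and 4 fell, and 3 rose without flox/- MEF. Abcc4, which exports nucleotides and drugs, rose by 2.33, and the multidrug transporter gene Abcb1a by 1.92. Among 41 potassium channel genes 4 rose and 11 fell, and 2 rose without WT iPSC, without flox/- MEF or without -/- MEF. The background potassium channel gene Kcnk5 had 9.60, 9.21, 9.60 and 8.16 in pluripotent arrays, against 5.41, 5.06 and 5.35 in MEF arrays (log2 difference 3.87 ± 0.35 SE, adjusted p = 0.000108), with WT ESC more than 1 log2 unit under the other lines, and the inward rectifier gene Kcnj2 fell by 2.73.

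Elastic fibre and lysyl oxidase genes gave 0 higher and 19 lower of 22, with a median log2 difference of -3.20. Fbn2, the fibrillin of embryonic microfibrils, had 7.19, 6.48, 7.36 and 6.54 in pluripotent arrays, against 11.94, 11.76 and 11.07 in MEF arrays (log2 difference -4.69 ± 0.30 SE, adjusted p = 2.84e-05), and all pluripotent arrays were more than 3 log2 units below all MEF arrays. Fbln5, which organises elastin, fell by 4.61 and Mfap2 by 3.66. Lox, the collagen crosslinking enzyme, had 10.56, 5.58, 9.70 and 11.60 in pluripotent arrays, against 13.30, 13.21 and 13.11 in MEF arrays (log2 difference -3.85 ± 1.28 SE, adjusted p = 0.0333). It spanned 6.02 log2 units among pluripotent arrays, with flox/- iPSC lowest. Its call was lost without -/- ESC (adjusted p = 0.0566), without WT MEF (adjusted p = 0.0802), without flox/- MEF (adjusted p = 0.084) or without -/- MEF (adjusted p = 0.075).

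ADAMTS proteases, which cut proteoglycans and procollagen, gave 0 higher and 12 lower of 16 (median -1.81, and -1.19 with no filter on dim genes). Adamts6 had 5.20, 4.61, 4.73 and 5.76 in pluripotent arrays, against 10.16, 9.44 and 9.63 in MEF arrays (log2 difference -4.67 ± 0.31 SE, adjusted p = 3.37e-05), and Adamts5, an aggrecanase, had 8.59, 5.47, 8.16 and 9.25 in pluripotent arrays, against 12.17, 11.93 and 11.85 in MEF arrays. Genes that build heparan sulfate, chondroitin and hyaluronan gave 2 higher and 31 lower of 40 (median -1.37), and 1 higher without WT ESC, WT MEF, -/- MEF or the WT pluripotent arrays. Extl1, an exostosin family gene, rose by 1.36. The sulfotransferase gene Hs6st2 had 6.46, 5.10, 6.14 and 6.89 in pluripotent arrays, against 10.33, 10.06 and 10.58 in MEF arrays (log2 difference -4.17 ± 0.40 SE, adjusted p = 0.000131), the proteoglycan gene Cspg4 fell by 3.71, the hyaluronan synthase gene Has2 fell by 3.68 and the glypican gene Gpc6 fell by 3.27.

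The list of laminin, nidogen and other basement membrane genes gave 3 of 14 higher and 6 lower (21.4% and 42.9%). Of those that rose only Lama1 is a laminin chain. Lama1, the alpha chain of the first embryonic laminin, had 9.10, 9.36, 10.04 and 9.74 in pluripotent arrays, against 5.70, 5.99 and 5.73 in MEF arrays (log2 difference 3.75 ± 0.23 SE, adjusted p = 2.65e-05), and -/- ESC was the highest array. Agrn rose by 1.16. The nidogen gene Nid2 rose too, but lost its call with any array other than WT MEF or WT ESC left out (adjusted p between 0.0547 and 0.114). Among laminin chains Lama4 fell by 4.35, Lama2 fell by 3.18, Lamb2 fell by 2.42 and Lamb1 fell by 2.02. Integrins, which include receptors of laminins, gave 2 of 24 higher and 14 lower (median -1.11). Itga6, a laminin-binding chain, rose by 1.32 and Itgb7 by 1.27. The collagen-binding chain Itga11 had 7.27, 5.56, 5.99 and 7.79 in pluripotent arrays, against 11.81, 11.17 and 10.12 in MEF arrays (log2 difference -4.38 ± 0.62 SE, adjusted p = 0.000751), Itga1 fell by 3.99 and Itga8 by 3.35.

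Surface glycan enzymes gave 11 of 42 higher and 17 lower (26.2% and 40.5%, median 0.02), beside 30.1% and 29.9% of all genes. B4galnt4, an N-acetylgalactosaminyltransferase, had 8.85, 8.90, 8.62 and 8.41 in pluripotent arrays, against 5.49, 5.49 and 5.41 in MEF arrays (log2 difference 3.23 ± 0.14 SE, adjusted p = 7.31e-06), and Fut9, the fucosyltransferase that makes the Lewis X epitope of mouse ESC, rose by 2.75. The sialyltransferase gene St8sia6 had 6.99, 9.57, 9.997 and 5.90 in pluripotent arrays, against 5.01, 4.74 and 5.01 in MEF arrays, so flox/- iPSC and -/- ESC were far above both WT lines. Its call (log2 difference 3.20) was lost without flox/- iPSC (adjusted p = 0.0534), without WT MEF (adjusted p = 0.0559), without flox/- MEF (adjusted p = 0.0691) or without -/- MEF (adjusted p = 0.0566). Its relative St8sia1 had 5.62, 8.60, 8.64 and 7.01 in the same pluripotent arrays, the same 2 lines being highest. B3gnt9 fell by 3.16, St3gal1 by 3.14 and B4galt1 by 1.97.

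Of 34 protocadherin genes measured 15 passed the filter, and 14 of these fell and 0 rose, with a median of -2.55. They passed mainly through MEF arrays, so this share is a description. With no filter 25 of the 34 fell and the median was -0.88. Pcdh18 had 6.55, 5.43, 5.74 and 6.38 in pluripotent arrays, against 11.07, 11.39 and 11.23 in MEF arrays (log2 difference -5.20 ± 0.28 SE, adjusted p = 1.76e-05), Pcdh9 fell by 4.63, Pcdh19 by 4.10 and Pcdh7 by 4.03. The other members, including the clustered ones, whose probe sets may share sequence, were under the median of every array. Caveolae, annexins and S100 proteins gave 0 higher and 20 lower of 27 (median -1.90, and -1.32 with no filter). Cavin2, a caveolar coat protein, had 5.06, 4.67, 5.06 and 6.39 in pluripotent arrays, against 9.15, 9.88 and 10.04 in MEF arrays (log2 difference -4.39 ± 0.42 SE, adjusted p = 0.000135), and WT ESC was its highest pluripotent array. Cav1 spanned 3.52 and S100a6 3.91 log2 units among pluripotent arrays, both with WT ESC highest and flox/- iPSC lowest, the order of the summed fibroblast markers at its ends.

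Axon guidance genes, used by many migrating cells to sense contact and repulsion, gave 9 of 55 higher and 36 lower. Their median was -1.14, and -0.51 with no filter on dim genes. Of 16 semaphorins 4 rose and 10 fell, of 8 Eph receptors 2 rose and 6 fell, and of 8 ephrins 1 rose and 5 fell. Nrp1, the coreceptor for class 3 semaphorins and VEGF, had 7.46, 6.46, 6.40 and 7.71 in pluripotent arrays, against 11.21, 11.39 and 11.43 in MEF arrays (log2 difference -4.33 ± 0.34 SE, adjusted p = 6.64e-05). Its ligand Sema3a had 5.25, 4.91, 4.97 and 5.82 in pluripotent arrays, against 10.81, 9.66 and 8.58 in MEF arrays (log2 difference -4.44 ± 0.49 SE, adjusted p = 0.000264) and Epha3 fell by 4.45, both highest in WT MEF, and the netrin receptor gene Unc5c fell by 3.93. In the opposite direction stood the transmembrane semaphorin gene Sema4b, with 9.65, 10.20, 9.65 and 10.07 in pluripotent arrays, against 7.63, 7.82 and 7.65 in MEF arrays (log2 difference 2.19 ± 0.17 SE, adjusted p = 6.19e-05), and the receptor gene Epha2 (1.71).

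Growth factor receptors and ligands other than the FGF family gave 3 of 38 higher and 28 lower (median -1.90). Kit, the receptor of stem cell factor, had 10.64, 10.98, 10.54 and 9.59 in pluripotent arrays, against 5.21, 5.37 and 5.43 in MEF arrays (log2 difference 5.10 ± 0.31 SE, adjusted p = 2.56e-05), a 34.3-fold difference with WT ESC the lowest pluripotent array. The Egfr relative Erbb3 rose by 2.66 and the Gas6 receptor Tyro3 by 1.32. Pdgfra, the PDGF receptor of mesenchyme, had 7.54, 6.18, 7.81 and 5.89 in pluripotent arrays, against 10.21, 10.86 and 11.05 in MEF arrays (log2 difference -3.85 ± 0.51 SE, adjusted p = 0.000527), Pdgfd fell by 3.82, Vegfd by 3.77 and Igf1 by 3.75. Of 13 insulin-like growth factor binding genes 2 rose and 10 fell, and 1 rose without either iPSC, -/- ESC, flox/- MEF or -/- MEF. Their median was -2.78, and -1.46 with no filter on dim genes. The RNA-binding protein gene Igf2bp1 rose by 2.22, while Irs1, the docking protein of the insulin receptor, had 7.61, 6.63, 5.78 and 6.68 in pluripotent arrays, against 10.09, 10.84 and 10.31 in MEF arrays (log2 difference -3.74 ± 0.40 SE, adjusted p = 0.000229). The binding protein genes varied between lines, Igfbp4 with 8.76, 6.27, 6.95 and 6.80 and the protease gene Pappa with 8.31, 5.15, 7.09 and 8.27 in pluripotent arrays, WT iPSC highest in both.

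In the YAP and TEAD pathway, in which stiffness and spreading drive transcription through TEAD factors, 3 of 27 genes rose and 21 fell (median -1.37). Fat4, an atypical cadherin, had 6.36, 5.39, 5.54 and 7.57 in pluripotent arrays, against 11.10, 10.70 and 10.38 in MEF arrays (log2 difference -4.51 ± 0.51 SE, adjusted p = 0.000284). The target gene Ccn1 had 9.41, 8.18, 8.65 and 10.91 in pluripotent arrays, against 12.05, 12.19 and 12.69 in MEF arrays (log2 difference -3.02 ± 0.60 SE, adjusted p = 0.00365), the cofactor gene Vgll3 fell by 3.27, and the targets Ccn2 and F3 spanned 2.92 and 2.98 log2 units among pluripotent arrays, WT ESC highest. Tead4, the TEAD factor of preimplantation embryos, rose by 2.17 and the kinase gene Stk4 by 0.66.

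BMP pathway and Id genes gave 1 of 28 higher and 19 lower (median -1.32). Bmp7 had 8.81, 8.40, 7.35 and 9.04 in pluripotent arrays, against 6.24, 6.27 and 6.24 in MEF arrays (log2 difference 2.15 ± 0.37 SE, adjusted p = 0.00198), with -/- ESC the lowest pluripotent array. Id2, an inhibitor of helix-loop-helix factors, had 7.81, 7.67, 7.03 and 9.83 in pluripotent arrays, against 11.51, 11.54 and 11.78 in MEF arrays (log2 difference -3.53 ± 0.60 SE, adjusted p = 0.00173), and WT ESC was 2 log2 units above the other lines. Id3 fell by 2.50, and the antagonist genes Grem1 and Nbl1 fell by 3.28 and 2.83. Notch genes gave 3 of 23 higher and 11 lower, with the coactivator gene Maml2 at 6.85, 5.39, 5.64 and 6.99 in pluripotent arrays, against 10.17, 10.31 and 10.12 in MEF arrays (log2 difference -3.98 ± 0.41 SE, adjusted p = 0.000187), the ligand Jag1 down by 2.05 and the receptor Notch2 by 1.65. Of 15 Hedgehog genes 7 fell and 3 rose, and 1 rose with any of the 3 MEF arrays, WT ESC or the WT pluripotent arrays left out. The coreceptor gene Boc had 6.65, 6.90, 6.55 and 7.03 in pluripotent arrays, against 9.88, 9.73 and 9.69 in MEF arrays (log2 difference -2.98 ± 0.15 SE, adjusted p = 1.28e-05), the effector Gli3 fell by 2.01 and the signal transducer Smo by 1.84. Retinoid genes gave 0 higher and 10 lower of 17 (median -0.92), led by the reductase gene Dhrs3 with 7.71, 7.89, 7.81 and 7.65 in pluripotent arrays, against 10.34, 9.88 and 9.98 in MEF arrays (log2 difference -2.30 ± 0.14 SE, adjusted p = 2.69e-05).

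The lines were grown with LIF and an inhibitor of the ERK cascade, and MEF, by the protocol, in the same medium. Of 19 LIF, IL6 and STAT3 genes 4 rose and 8 fell (median -0.21). The oncostatin M receptor gene Osmr had 9.01, 5.64, 7.74 and 7.69 in pluripotent arrays, against 11.52, 11.67 and 11.84 in MEF arrays (log2 difference -4.16 ± 0.68 SE, adjusted p = 0.00151), with WT iPSC highest and flox/- iPSC lowest among pluripotent arrays, and Jak2 fell by 2.77. Pim3, a STAT3 target kinase, rose by 1.001. ERK feedback and AP-1 genes gave 5 of 29 higher and 15 lower (median -0.61). Etv5, an ETS factor, had 10.98, 11.47, 11.09 and 11.54 in pluripotent arrays, against 8.65, 8.91 and 8.73 in MEF arrays (log2 difference 2.51 ± 0.17 SE, adjusted p = 3.76e-05), and its relative Etv4 rose by 1.14. The AP-1 genes Fosl2 and Jun fell by 2.85 and 2.17, and Egr1 by 2.45.

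Of 13 RGS genes, which shorten G protein signals, 9 fell and 1 rose. Rgs4 had 5.04, 4.83, 5.27 and 6.76 in pluripotent arrays, against 9.63, 9.86 and 10.15 in MEF arrays (log2 difference -4.41 ± 0.45 SE, adjusted p = 0.000172), with WT ESC the highest pluripotent array, and Rgs2 fell by 2.56. Rgs9, best known from photoreceptors, rose by 1.17. Phosphodiesterases and adenylate cyclases gave 2 of 25 higher and 18 lower, and 4 higher without WT MEF. Their median was -0.98, and -0.51 with no filter on dim genes. Pde3a had 5.18, 5.32, 5.08 and 5.18 in pluripotent arrays, against 8.52, 8.08 and 8.30 in MEF arrays (log2 difference -3.11 ± 0.13 SE, adjusted p = 6.9e-06), the pluripotent arrays lying close together, and Adcy6 fell by 2.80. Pde9a, a cyclic GMP phosphodiesterase, rose by 2.23.

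Of 85 SNARE, TMED, YIPF and Rab genes, which sort and fuse transport vesicles, 57 fell and 7 rose (median -0.64), and 4 rose without WT MEF. Among these, 32 of 52 Rab genes fell and 5 rose, 9 of 13 syntaxins fell and 1 rose, and 7 of 8 TMED cargo receptors fell. Rab7b, a Rab of late endosomes, had 5.45, 4.86, 5.09 and 5.15 in pluripotent arrays, against 8.32, 8.06 and 7.23 in MEF arrays (log2 difference -2.73 ± 0.27 SE, adjusted p = 0.000155), with -/- MEF the lowest of the MEF arrays. Rab32 fell by 2.20, Tmed3 by 2.15 and the Golgi-associated Rab34 by 2.09, while the recycling endosome gene Rab4a rose by 0.86.

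Lysosomal genes gave 3 of 43 higher and 29 lower (median -0.87). Arsb, an arylsulfatase that degrades dermatan sulfate, had 6.89, 6.22, 5.82 and 6.996 in pluripotent arrays, against 10.16, 9.63 and 8.83 in MEF arrays (log2 difference -3.06 ± 0.39 SE, adjusted p = 0.000464), Ctso fell by 2.84, the acid lipase gene Lipa by 2.65 and Naglu by 2.45. Macrophage markers, whose cells are rich in lysosomes, were likewise lowest among MEF in -/- MEF, and Arsb, Ctso, Lipa and Naglu were all lower in -/- MEF than in WT and flox/- MEF, and in -/- MEF above all pluripotent arrays. The part of macrophage RNA in these differences was not tested. With any 1 array left out between 24 and 30 lysosomal genes were called lower. Manba, a mannosidase, ran the other way with 10.59, 10.47, 9.53 and 10.20 in pluripotent arrays, against 8.84, 8.69 and 8.16 in MEF arrays (log2 difference 1.63 ± 0.28 SE, adjusted p = 0.00199), and Tfeb, the transcription factor of lysosome genes, rose by 1.11.

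Transcription factors of mesoderm and limb gave 2 of 59 higher and 48 lower (median -1.71), and 1 higher without either iPSC, WT ESC, flox/- MEF, -/- MEF or the WT pluripotent arrays. Osr1, a factor of intermediate mesoderm and connective tissue, had 7.86, 5.46, 6.34 and 6.54 in pluripotent arrays, against 11.48, 11.46 and 10.96 in MEF arrays (log2 difference -4.75 ± 0.50 SE, adjusted p = 0.000212), with WT iPSC the highest pluripotent array. Tbx15 fell by 4.36, Foxp2 by 4.10 and Zfhx4 by 4.09, and Foxp2 varied little over the pluripotent arrays. Ebf1 was a member with a wide range, at 9.90, 9.13, 5.98 and 8.95, -/- ESC being lowest. Tbx3, a T-box factor with a known part in ESC self-renewal, had 10.64, 10.77, 10.35 and 10.88 in pluripotent arrays, against 7.50, 7.81 and 8.42 in MEF arrays (log2 difference 2.76 ± 0.23 SE, adjusted p = 8.49e-05).

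Nuclear receptors gave 4 of 29 higher and 15 lower (median -0.63, and -0.33 with no filter on dim genes). Esrrb, an orphan receptor of naive pluripotency, rose by 6.46 and was near 11 in every pluripotent array, and Nr5a2 by 5.08. Nr0b1, a corepressor receptor on the X chromosome, had 11.76, 11.95, 9.83 and 12.10 in pluripotent arrays, against 4.61, 4.85 and 4.92 in MEF arrays (log2 difference 6.61 ± 0.53 SE, adjusted p = 6.8e-05), and -/- ESC was about 2 log2 units under the other lines. Nr6a1, a germ cell and embryo receptor, rose by 1.96. Nr2f2 fell by 2.99, Nr4a2 by 2.43 and Rora by 2.31. Among 14 Sox genes 5 rose and 4 fell: besides Sox2, Sox15 had 9.26, 9.19, 7.64 and 9.23 in pluripotent arrays, against 6.21, 6.26 and 6.34 in MEF arrays (log2 difference 2.56 ± 0.40 SE, adjusted p = 0.00113), again with -/- ESC lowest, and Sox21 rose by 1.01, while Sox9, a cartilage factor, fell by 2.81 and Sox4 by 2.47.

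Zinc finger genes named in the Zfp series, most of them with DNA-binding fingers and many with a KRAB repressor domain, gave 106 of 291 higher and 44 lower (36.4% and 15.1%, median 0.20). The highest was Zfp980, which lies in a block at the distal end of chromosome 4. Of the 7 genes of that block that passed the filter 6 rose. Zfp979 had 10.53, 10.16, 9.87 and 10.19 in pluripotent arrays, against 6.48, 3.86 and 3.63 in MEF arrays (log2 difference 5.53 ± 0.65 SE, adjusted p = 0.000321), with WT MEF more than 2 log2 units above the other MEF arrays, and Zfp600 had 9.19, 9.33, 7.91 and 7.95 in pluripotent arrays, against 3.76, 3.91 and 3.40 in MEF arrays (log2 difference 4.91 ± 0.40 SE, adjusted p = 7.13e-05), higher in both iPSC than in both ESC. Zfp982 rose by 3.13, Zfp991 by 2.78 and Zfp985 by 2.13, while Zfp933 gave -0.03 and was not called. These genes are near-identical copies whose probes may read each other, so their values are not independent. Away from this block Zfp459, on chromosome 13, had 9.28, 9.41, 9.30 and 9.22 in pluripotent arrays, against 4.31, 4.45 and 4.23 in MEF arrays (log2 difference 4.97 ± 0.11 SE, adjusted p = 3.48e-07). On the lower side Zfp521, a factor of mesenchymal progenitors, had 6.71, 6.43, 7.39 and 5.98 in pluripotent arrays, against 10.03, 10.19 and 9.47 in MEF arrays (log2 difference -3.27 ± 0.33 SE, adjusted p = 0.000178), and Zfp503 fell by 2.60.

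Of 32 pattern recognition and NF-kappaB genes 15 fell and 3 rose (median -0.48), and 1 rose without flox/- MEF or without -/- MEF. The endotoxin receptor gene Tlr4 had 4.44, 4.32, 4.31 and 4.59 in pluripotent arrays, against 6.97, 8.02 and 7.24 in MEF arrays (log2 difference -2.996 ± 0.24 SE, adjusted p = 6.99e-05), at or below the lower quartile in every pluripotent array, the adaptor Sting1 fell by 2.51 and Tnfrsf1a by 2.40. Complement, coagulation and serpin genes gave 0 higher and 15 lower of 19 (median -2.20, and -1.29 with no filter on dim genes). The urokinase gene Plau led at 5.48, 5.30, 5.54 and 6.92 in pluripotent arrays, against 9.93, 9.38 and 10.29 in MEF arrays (log2 difference -4.06 ± 0.41 SE, adjusted p = 0.000178). Thbd fell by 3.82 and Serpinb9 fell by 3.46. Markers of macrophages, which are cells of innate immunity, summed to between 10.004 and 11.07 in pluripotent arrays, against 10.43 to 13.08 in MEF arrays. The pluripotent sums came through Cd68 and Lyz2, while Ptprc, Csf1r, Adgre1 and Tyrobp were higher in every MEF array than in any pluripotent array. The part of macrophage RNA was not tested. In MHC class I presentation 7 of 15 fell and 0 rose, and 4 fell without flox/- MEF. The trimming peptidase gene Erap1 had 4.99, 4.94, 4.78 and 4.94 in pluripotent arrays, against 6.38, 7.21 and 6.90 in MEF arrays (log2 difference -1.92 ± 0.20 SE, adjusted p = 0.000176).

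Of 30 apoptosis genes 13 fell and 3 rose (median -0.51). Casp12, an inflammatory caspase gene, had 5.67, 4.66, 4.62 and 4.65 in pluripotent arrays, against 9.43, 9.69 and 9.20 in MEF arrays (log2 difference -4.54 ± 0.28 SE, adjusted p = 2.74e-05), with WT iPSC 1 log2 unit above the other lines. The initiator caspase gene Casp8 fell by 2.67, the death receptor gene Fas fell by 2.42 and the necroptosis effector Mlkl fell by 2.38. The 3 that rose were Bid by 1.39, Diablo by 0.72 and Birc2 by 0.55.

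Clock genes gave 2 of 19 higher and 10 lower, and 6 lower without flox/- MEF. The repressor genes Ciart and Cry1 rose, the first with 8.84, 9.60, 9.81 and 9.22 in pluripotent arrays, against 7.48, 7.78 and 7.86 in MEF arrays (log2 difference 1.66 ± 0.24 SE, adjusted p = 0.000812) and Cry1 by 1.62, while Nfil3 fell by 1.89 and Bhlhe40 by 1.78. Primary cilium genes gave 8 of 35 higher and 8 lower, both under the shares of all genes, with the transition zone gene Mks1 up by 1.49 and the intraflagellar transport gene Ift43 down by 1.03. Among 8 connexins and pannexins 2 rose and 2 fell, and 1 fell without WT iPSC, without flox/- iPSC or without any of the MEF arrays. Gjb5 rose by 0.91 and Gjb2 had 6.28, 6.01, 7.40 and 5.61 in pluripotent arrays, against 9.41, 9.82 and 10.34 in MEF arrays (log2 difference -3.53 ± 0.43 SE, adjusted p = 0.000359).

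A set of reproductive genes (Rhox, Mage, Fthl17 and others, many of them silent in somatic cells) differed among the pluripotent lines. Of 34 measured 20 passed the filter, 19 on the X chromosome and Magef1 on chromosome 16, of which 2 rose and 3 fell over the 4 lines, but without the WT pluripotent arrays 13 rose. The count rested on few arrays: it was 0 without WT, flox/- or -/- MEF or without flox/- iPSC, and 8 without WT ESC. In 15 of the 20 both flox/- iPSC and -/- ESC were above both WT lines. Among the 7 arrays, several of them were above the array median in these 2 arrays alone, and others in -/- ESC alone. The filter thus sets that order in part, so the count is a description and supports nothing. Usp26, a deubiquitinase gene of testis, had 5.83, 9.03, 11.09 and 4.40 in pluripotent arrays, against 4.26, 4.25 and 4.45 in MEF arrays. Nxf3, an RNA export factor gene, had 7.26, 9.58, 10.07 and 4.42 in pluripotent arrays, against 4.10, 4.26 and 4.22 in MEF arrays (log2 difference 3.64 ± 1.26 SE, adjusted p = 0.0379), its call being lost with any of the 7 arrays other than WT ESC left out (adjusted p between 0.059 and 0.0903). For both genes WT ESC was near the MEF arrays and WT iPSC between. Maged2, Magee1 and Maged1, which are widely expressed, fell by 2.08, 1.94 and 1.35 and did not show this order. The X-linked gene Hprt split the lines the opposite way, at 10.96, 4.90, 5.84 and 10.97 in pluripotent arrays, against 10.32, 8.46 and 5.33 in MEF arrays, and was not called. Genotype, Hprt signal, Y-linked signal and fibroblast marker signal run together over these 4 arrays in part, and their effects cannot be told apart.

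Whole chromosomes were compared among the 4 lines as the median deviation of their genes, of mean log2 level above 7, from the gene's median over the lines. In -/- ESC the 435 genes of chromosome 6 lay at 0.26, with 83.0% of them above the median of the lines, while no other chromosome of any line went beyond 0.11 in either direction. On chromosome 8 the 529 genes lay at 0.11 in WT iPSC and 0.10 in -/- ESC, against -0.10 in flox/- iPSC and -0.10 in WT ESC. Between pluripotent and MEF arrays the median difference of chromosome 6 was 0.04 and of chromosome 8 was 0.16. On chromosome 8 35.3% of the genes kept rose, beside 30.1% of all genes. Chromosome 17 was close to it, with 35.1% and a median difference of 0.12.

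**Figure D5:**
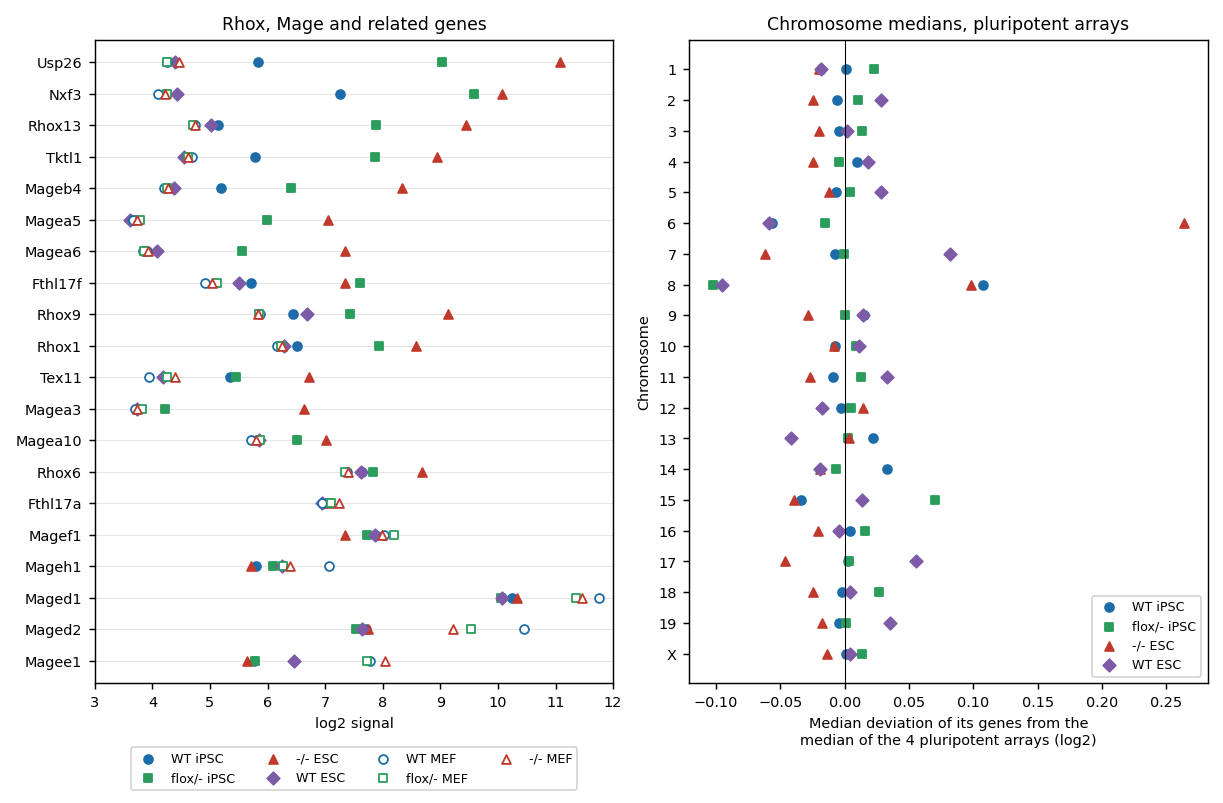
The left panel gives the log2 signal of the 20 Rhox, Mage and related genes, 19 of them X-linked, on each array, filled for pluripotent and open for MEF arrays, and the right panel the median deviation of the genes of each chromosome on each pluripotent array, in log2 units. In the upper rows flox/- iPSC and -/- ESC lie to the right of WT iPSC, WT ESC and MEF, and chromosome 6 of -/- ESC stands at 0.26.

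Promoters, taken as the 250 bases before and 50 after the RefSeq start in GRCm38.p6, were available for 10357 of the genes kept. Their CpG content (observed over expected) had a median of 0.755 over all genes, 0.801 in genes called higher and 0.719 in genes called lower. In the genes that moved at least 8-fold it was lower in both directions, 0.551 in 155 higher genes and 0.538 in 268 lower genes. The TATA box letters TATAAA, on the sense strand and starting between 40 and 20 bases before the start, were found in 6.45% of the promoters at least 8-fold higher (10 of 155) and in 5.97% of those at least 8-fold lower (16 of 268), against 1.48% of all (153 of 10357). An example of each direction is shown, TATAAA in capitals: Nr0b1 at chrX:86191525-86191824 on the plus strand and Rgs4 at chr1:169747593-169747892 on the minus strand.
Nr0b1: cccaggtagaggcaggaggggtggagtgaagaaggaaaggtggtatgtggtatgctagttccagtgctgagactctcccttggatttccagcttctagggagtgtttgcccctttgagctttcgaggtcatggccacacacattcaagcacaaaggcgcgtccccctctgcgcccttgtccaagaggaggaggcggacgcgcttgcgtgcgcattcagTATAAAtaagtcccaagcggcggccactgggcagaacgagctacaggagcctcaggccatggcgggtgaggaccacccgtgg
Rgs4: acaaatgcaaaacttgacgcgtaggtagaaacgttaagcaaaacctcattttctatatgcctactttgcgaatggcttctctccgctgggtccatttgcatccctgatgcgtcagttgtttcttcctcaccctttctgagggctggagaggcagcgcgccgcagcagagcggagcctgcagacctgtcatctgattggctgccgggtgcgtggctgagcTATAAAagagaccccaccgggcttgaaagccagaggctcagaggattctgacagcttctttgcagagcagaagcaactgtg
Counted from the start, the letters begin at -32 in Nr0b1 and at -31 in Rgs4. A match is a description of these letters and no sign that the box is used.

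Other motifs were counted on both strands anywhere in the 300 bases. The TEAD letters GGAATG were in 61.9% of the promoters of the YAP and TEAD list (13 of 21), against 1238 of the 10357 promoters of all genes kept. Ccn1 is shown at chr3:145649936-145650235 on the minus strand, with the reverse complement of the motif in capitals.
Ccn1: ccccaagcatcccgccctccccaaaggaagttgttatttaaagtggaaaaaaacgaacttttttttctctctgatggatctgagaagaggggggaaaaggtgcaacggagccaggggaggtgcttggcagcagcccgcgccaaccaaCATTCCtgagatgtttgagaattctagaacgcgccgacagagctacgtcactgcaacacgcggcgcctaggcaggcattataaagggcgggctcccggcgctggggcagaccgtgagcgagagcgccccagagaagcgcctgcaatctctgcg
The letters CCAAT, which can overlap other motifs, were in 93.8% of the cholesterol promoters (15 of 16) and in 76.2% of the histone variant and chaperone promoters (16 of 21), against 38.5% of all. They were also in 83.3% of protocadherin (5 of 6) and 81.8% of MHC class I promoters (9 of 11). E-box letters CACGTG were in 28.9% of lysosomal (11 of 38) and 22.2% of ribosome biogenesis promoters (6 of 27), against 10.3% of all, though lysosomal genes fell and ribosome biogenesis genes rose. Larger shares were found in insulin-like growth factor binding (36.4%, 4 of 11) and clock promoters (31.2%, 5 of 16). The lists named beside each motif are a choice among all lists, and the shares were not tested. The E2F letters TTCCCGCC were in 13.0% of the homologous recombination promoters (3 of 23), against 4.17% of all. Their share was larger in SRSF and hnRNP splicing factor (5 of 25) and microRNA processing promoters (15.8%, 3 of 19). It was also larger in telomere (15.4%, 2 of 13) and serine, glycine, threonine and folate promoters (14.3%, 3 of 21). In mismatch repair and end joining the letters were in 1 of 11 promoters. Msh6 of that list, which lies at chr17:87974800-87975099 on the plus strand, is shown with the letters in capitals, 16 bases after its start.
Msh6: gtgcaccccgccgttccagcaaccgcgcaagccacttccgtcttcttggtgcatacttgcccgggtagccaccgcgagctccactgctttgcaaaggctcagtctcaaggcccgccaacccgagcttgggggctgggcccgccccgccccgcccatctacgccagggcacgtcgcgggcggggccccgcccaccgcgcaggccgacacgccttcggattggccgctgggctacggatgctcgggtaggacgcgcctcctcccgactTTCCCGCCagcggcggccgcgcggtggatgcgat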

How the data were processed

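RNA was profiled on Affymetrix gene arrays, 1 per sample. Per the labels' protocols, RNA was taken up in TRIZOL by the authors and hybridised after biotin labelling. The labels name a 3′ IVT kit, while the probe sets are those of a whole-transcript gene array. The values deposited by the authors are on a log2 scale, from 3.11 to 13.99, for 35512 probe sets. Their summary and normalization are not given in the sources used here. An array has no sequencing depth, and the number of arrays limits the precision.

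Medians of the 12 arrays differed by 0.122, above the limit of 0.1, so values were quantile normalized over them. Of the probe sets 21789 had a single symbol, 1621 had several and 12102 were not listed in the array annotation. They stood for 19938 genes, each read by the probe set of highest mean. Genes above the median of at least 1 array were kept (13044), and 0 columns were left out. The 4 pluripotent and 3 MEF arrays were compared with limma 3.58.1 in R 4.3.3 with Benjamini-Hochberg adjustment over all genes kept, and the fit was tested on simulated data. Arrays of different genotype stand as replicates of a state, so the spread includes genotype, and the labels do not state whether any 2 arrays came from a common culture.

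The comparison and its 62 gene lists were chosen with earlier results of these data known, and 9 lists (small nucleolar RNAs, microRNA genes, RNA exosome, DEAD and DEAH helicases, TFIID and Integrator, mitochondrial ribosomal proteins, SNARE and Rab proteins, and both Zfp lists) after their values were seen. Named are, per list, the 4 largest called differences in each direction, every member of lists of 8 or fewer, the 3 called members with the widest range over pluripotent arrays, the 30 largest differences overall in each direction, and the markers. The genes opposed between pairs, the microRNA genes of shared seed with Meg3 and Rian, Mir92b, Mir99b, Mirlet7d, Usp26, Magef1, Hprt, and the promoters shown were chosen after their values were seen. Sequences come from RefSeq tables of GRCm38.p6, and motifs were counted with Python 3.11.15 and pandas 2.3.3. Some items are not reported here. Alternatives covered 21 settings of normalization, filter, probe set, genotype block, array weights and arrays left out.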

Additional observations from a re-analysis of the deposited data

Results flagged for a closer look

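In 14 of the genes named in the text 1 pluripotent array stood apart from the other 3, with a gap to the nearest array, as a share of the range over the 4 arrays, above Dixon's critical value. Chance alone sets an array apart in about 1 in 20 groups, and 291 genes were tested, so that about as many are due by chance as were found. The array apart was -/- ESC in 7 genes, WT ESC in 5, WT iPSC in 2 and flox/- iPSC in 0. In -/- ESC the lowest value was that of Ddx11 (gap 0.860 of the range), Msh6 (0.870), Nr0b1 (0.852), Nr5a2 (0.854), Sod2 (0.964) and Sox15 (0.957). Sox15 was at 7.64 in -/- ESC, with the next lowest line at 9.19, and Nr0b1 at 9.83, with the next lowest at 11.76. Slc40a1 was highest in -/- ESC (0.940), at 8.92 with the next line at 5.68, but this gene was chosen for its opposed -/- pair, so this restates the choice. WT ESC was lowest in Brca2 (0.843), Nasp (0.908) and Tfrc (0.833), and highest in Epha2 (0.887) and Plau (0.852). Plau, a gene high in MEF, was at 6.92 in WT ESC, the pluripotent array with the highest summed fibroblast markers, and at 5.54 in the next line. WT iPSC was highest in Casp12 (0.966) and Lin28b (0.842). In Ddx11, Msh6, Nr5a2, Sod2, Brca2, Nasp and Tfrc the array apart differed from the next by less than 0.5 log2 units.

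The change between pluripotent line and MEF of the same genotype differed in direction between pairs for Mest, Mmp3, Serpina3n and Slc40a1. The pair differences spanned 8.35 log2 units in Mest, 7.13 in Mmp3, 6.96 in Serpina3n and 6.36 in Slc40a1. Each pair is 1 array against 1 array, and the difference between pairs was not tested.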

How the results depend on the processing

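In pluripotent arrays 3921 genes rose and 3906 fell, of 13044. Asking also for a 2-fold difference left 1869 higher and 2334 lower. With 1 array left out the counts ran from 3261 to 3895 higher and from 3188 to 3867 lower, the lowest without flox/- MEF. The 2 ESC arrays against MEF gave 2909 higher and 2815 lower, of which 5655 of 5724 calls were shared with those of all 4 lines, and array weights gave 4741 and 4713. Genotype as a replicate block gave 3782 and 3750, and with the 3 matched pairs 3754 and 3744. The remaining settings, without quantile normalization, with other filters, other probe set rules, the iPSC arrays alone or all 12 arrays, stayed between 3183 and 4166 in each direction. Of 401 named genes, between 346 and 401 kept direction and call under a setting that left all of them in, and 2 reversed. H60b, not called at 0.09, was at -0.22 with the 2 ESC arrays and between -0.41 (without flox/- iPSC) and 0.39 (without WT iPSC) with 1 array left out. Zfp933, not called at -0.03, was at 0.014 with the 2 ESC arrays and between -0.12 (without WT ESC) and 0.033 (without -/- ESC) with 1 array left out. Between 5 and 17 of 124 list counts moved by more than 1.5 times with 1 array left out, the most without flox/- MEF, 30 with the 2 ESC arrays and 47 when a 2-fold difference was also asked for. Values near the lower quartile of an array, at 4.68, are limited by background. The causes were not tested.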

Other observations

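Several of the 30 largest differences in each direction belong to none of the gene lists. Triml2 and Triml1, a pair of TRIM-like genes known from early embryos, rose by 6.25 and 5.44 on the log2 scale. Pla2g1b, a secreted phospholipase gene of the pancreas, had 11.31, 11.56, 12.002 and 11.78 in pluripotent arrays, against 5.34, 5.54 and 5.50 in MEF arrays (log2 difference 6.20 ± 0.17 SE, adjusted p = 1.09e-06). All pluripotent arrays were far above all MEF arrays. Trh, the gene of thyrotropin-releasing hormone, had 10.64, 11.05, 11.99 and 11.17 in pluripotent arrays, against 5.55, 5.72 and 5.82 in MEF arrays (log2 difference 5.52 ± 0.29 SE, adjusted p = 1.71e-05). The germ cell gene Morc1 rose by 5.44. Rpp25, a subunit of RNase P, which trims tRNA, rose by 5.44. Of the falls outside the lists, Cd109, a surface protein that binds TGF-beta, had 6.78, 5.92, 6.07 and 7.56 in pluripotent arrays, against 10.96, 11.62 and 11.61 in MEF arrays (log2 difference -4.81 ± 0.40 SE, adjusted p = 8.24e-05). The chemokine gene Cxcl12 fell by 4.42 and the small leucine-rich proteoglycan gene Ogn fell by 4.52.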
